A study of Mus musculus with 7 samples.

Results

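Bmi1, Hopx, Lrig1 and Tert are 4 genes that have been proposed as markers of reserve stem cells in the intestinal crypt. They were chosen by gene name, and 5 of the 41174 gene probes on the arrays carry these names, 2 for Bmi1 and 1 for each of the others, out of 28146 gene names in all. Gene expression was measured on 7 dual-colour arrays of epithelial cells sorted from mouse intestine. GFP-high cells of Dll1-EGFP-ires-CreERT2 mice, in which GFP is driven by the promoter of Dll1, a Notch ligand of cells entering the secretory lineage, were divided by the surface protein CD24 into CD24 high, CD24 medium and CD24 low, with 2 arrays each. GFP-high cells of Lgr5-EGFP-ires-CreERT2 mice, in which the promoter of the crypt base stem cell receptor Lgr5 drives GFP, gave 1 array. All mice thus carried a GFP and CreERT2 allele, no treatment is labelled, and strain, age and the number of animals per array are not given in the sources used here. The question put to the 5 probes was whether the Dll1 cells carry these transcripts, and how their levels compare with those of Lgr5 cells.

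Reserve stem cells are thought to cycle slowly, to lie above the crypt base and to replace Lgr5 cells after damage. Bmi1 encodes a core subunit of Polycomb repressive complex 1, which holds genes such as the cell cycle inhibitor locus Cdkn2a silent. Lrig1 encodes a membrane protein that restrains ErbB growth factor receptors, Hopx a small homeodomain protein that does not bind DNA itself and works through partners such as Srf, and Tert the catalytic subunit of telomerase.

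Sample RNA carried Cy3 and whole small intestine RNA, the common reference, carried Cy5 on every array. A level below is the log2 ratio of sample over reference after background correction and within-array normalisation. A ratio of 0 is thus the level in whole small intestine relative to the bulk of probes. Dyes were not swapped, so any difference between the dyes for a probe is part of its ratio to the reference on every array. Arrays are named by CD24 level and replicate. Sample spots stood well above background, by the scanner software's own test, on 42.54 to 44.41% of gene spots in CD24 high and on 52.82 to 60.52% on the other 5 arrays. Slide 1 held high 1, medium 1 and Lgr5, and slide 2 held the other 4 arrays. The Lgr5 and Cd24a probes followed the sort, but Dll1 stood at 0.61 and −0.04 in CD24 high, below its 0.88 in the Lgr5 array, and at 2.52 to 2.81 in the 4 CD24 medium and low arrays. The mean log2 ratio of 7 Paneth cell markers was 5.05 and 5.35 in CD24 high and below 0 on every other array, so CD24 high is named here by its gate and not as progenitors. The replicates are called biological by the series but are not tied to animals, and none of the spread used for testing comes from Lgr5 cells. In RNA from sorted populations, fewer expressing cells and less RNA per cell cannot be told apart.

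All 4 genes gave signal in the Dll1 cells. In the sample channel, 4 of the 5 probes (the brighter Bmi1 probe, Hopx, Lrig1 and Tert) were well above background on 7 of 7 arrays, including all 6 Dll1 arrays. Across the whole array, 37.5% of gene probes met that mark. The dimmer Bmi1 probe met it on 2 of 7 arrays, medium 1 and low 2, and in no CD24 high or Lgr5 sample. In the reference channel all 5 probes were above background on every array. All 5 also passed the filter on dim probes, which asks for 2 of 7 arrays and kept 24495.

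**Figure D1:**
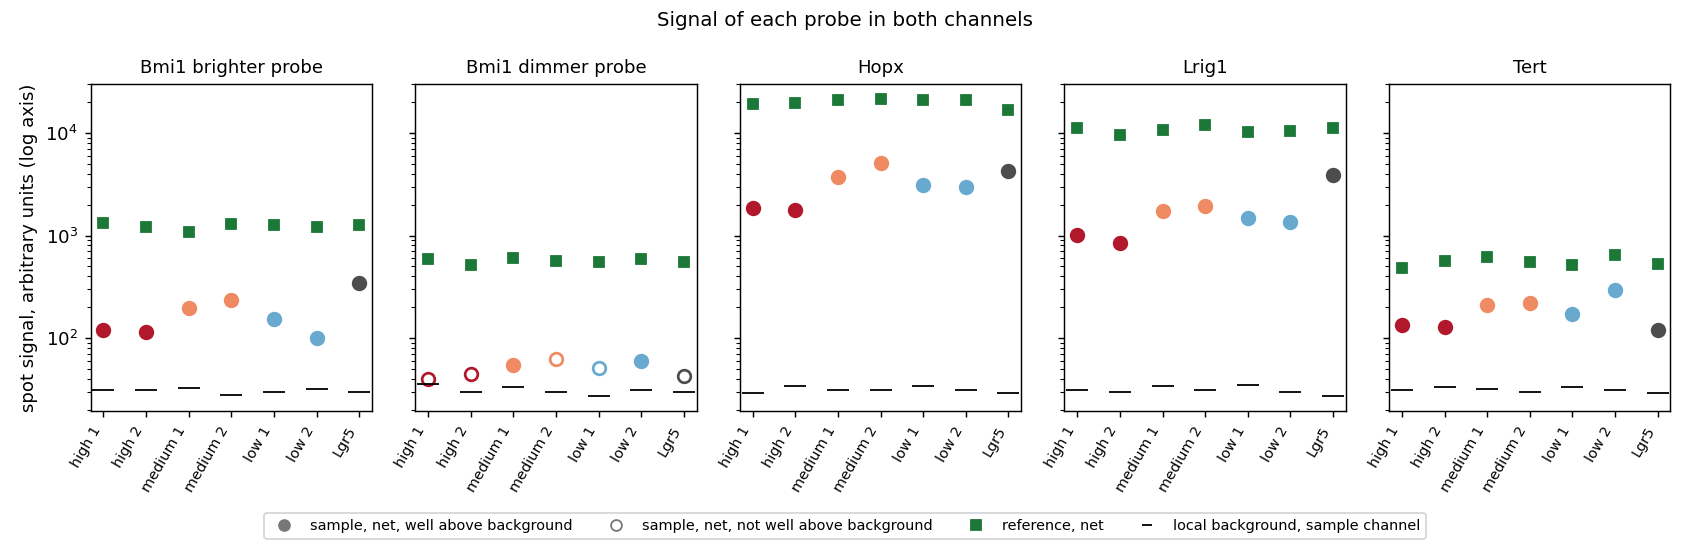
Net spot signal of each probe (mean signal minus local background, arbitrary units, log axis) on the 7 arrays in the sample channel (circles, coloured by group; open where not well above background) and the reference channel (green squares), with the sample channel's local background as black dashes. Hopx and Lrig1 lie far above the dashes on every array, the brighter Bmi1 probe and Tert less far, and the dimmer Bmi1 probe has 5 open circles; the reference squares hardly move between arrays.

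Net sample signal of Hopx was 1777 to 5069 units and of Lrig1 854.3 to 3883 units, and their signal before subtraction was at least 53.3 and 30 times the local background. The brighter Bmi1 probe gave 100.1 to 342.2 units and Tert 119.1 to 293.5 units, and before subtraction at least 4.13 and 4.92 times that background. The dimmer Bmi1 probe gave 39.56 to 62.5 units. Probes bind with different strength, so these figures say how well each probe was measured and not which gene was more abundant. The reference signal of a probe varied little between arrays, with an SD of 0.0782 to 0.147 on the log2 scale over the 5 probes. Net Hopx signal was lowest in CD24 high, at 1877 and 1777 units, against 3107 and 2971 in CD24 low. Lrig1 was likewise lowest there, at 1002 and 854.3 against 1473 and 1346. The brighter Bmi1 probe gave 118.8 and 115.2 in CD24 high and 152.4 and 100.1 in CD24 low. Median net signal of all gene spots was 46.11 and 47.9 in CD24 high and 63.85 and 76.22 in CD24 low. The higher Hopx and Lrig1 ratios in CD24 high thus rest on the normalisation within each array.

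Bmi1 was the one gene of the 4 with a difference past the threshold, an adjusted p of 0.05 over all probes kept. It was lowest in CD24 low. The brighter Bmi1 probe (A_52_P39157, mm9 chromosome 2, 18607987 to 18608046, plus strand) starts at base 3324 of its RefSeq transcript, per the array files. The dimmer one (A_51_P121547, mm9 chromosome 2, 18605306 to 18605365, plus strand) starts at base 950. It is shown because it is the member probe that most arrays did not measure, and read from its second base it holds no stop codon, as coding sequence would:

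Bmi1 dimmer probe: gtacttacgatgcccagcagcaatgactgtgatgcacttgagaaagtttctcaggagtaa

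On the brighter Bmi1 probe the log2 ratio was 0.27 in high 1 and 0.19 in high 2. It was 0.06 in medium 1 and 0.15 in medium 2. It was below 0 in low 1, at −0.36, and in low 2, at −0.90, and was highest in the Lgr5 array, at 0.58. The order of the groups was thus Lgr5, CD24 high (0.23 ± 0.06, SD, n = 2), CD24 medium (0.10 ± 0.06) and CD24 low (−0.63 ± 0.39), and no array of one group reached into another. The share of all probes that separate in this way is not given here. For this probe and those below, such separation of so few arrays is a description only. The low replicates lie farther apart than those of either other level.

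Bmi1 was 1.81-fold lower in CD24 low than in CD24 high, a log2 difference of −0.86 (SE 0.21, 95% interval −1.36 to −0.36, limma adjusted p = 0.038). That is 1 of the 5 member probes, where 15.5% of all probes passed in this comparison in either direction and 9.57% passed as lower in CD24 low. The size of the difference depended on the processing, and was −1.22 on the scanner software's own processed ratios. The call depended on most of the arrays. With high 1 left out the adjusted p was 0.13, with high 2 left out 0.12, with medium 1 or medium 2 left out 0.072, and with low 2 left out 0.14 at a difference of −0.58. With low 1 left out it was 0.015 and the difference −1.13. The call was also lost with slide as a term in the model (adjusted p = 0.083), on the slide 2 arrays alone (−0.82, adjusted p = 0.17), with a fit of these 2 groups alone (0.072) and with the background offset at 16 (0.058).

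Against the Lgr5 array, Bmi1 was 2.31-fold lower in CD24 low, a log2 difference of −1.21 (SE 0.26, 95% interval −1.82 to −0.59, limma adjusted p = 0.021). This too is 1 of 5 member probes, where 20.8% of all probes passed in either direction and 9.07% as lower in CD24 low. The adjusted p was between 0.011 and 0.044 with each of the 6 Dll1 arrays left out in turn. It was 0.097 with slide as a term, and no slide held both groups. The difference was −1.81 on the scanner software's own processed ratios. CD24 high (−0.35, 95% interval −0.96 to 0.26, adjusted p = 0.34) and CD24 medium (−0.47, 95% interval −1.09 to 0.14, adjusted p = 0.25) did not pass against the same Lgr5 array. CD24 low against CD24 medium gave −0.73 (95% interval −1.23 to −0.23), with an adjusted p of 0.34 where 0.0857% of all probes passed.

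The dimmer Bmi1 probe had log2 ratios of −0.64 and −0.16 in CD24 high, −1.06 and −0.86 at CD24 medium, −0.57 and −1.02 in CD24 low and −1.03 in the Lgr5 array. All 7 lie below 0, while on the brighter probe 5 of 7 lie above it. Since the sample signal was not above background in any CD24 high or Lgr5 array, these ratios are bounds and no fold is given. The probe adds no second reading of the Bmi1 difference, and its adjusted p lay between 0.14 and 0.9 over the 7 comparisons.

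**Figure D2:**
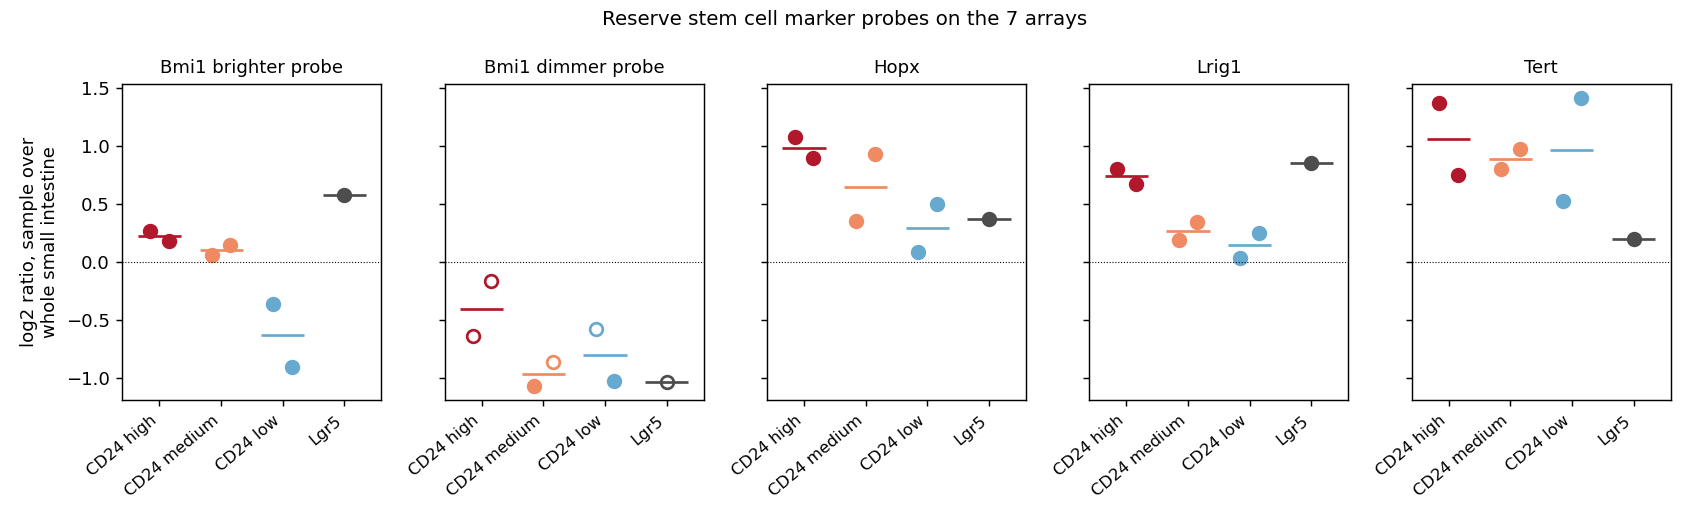
Log2 ratio of sample over whole small intestine for each probe on each array (points, by group; open where the sample channel was not well above background) with the group mean as a line; there are 2 points per CD24 level and 1 for Lgr5. Bmi1 on its brighter probe lies below 0 in CD24 low alone, Lrig1 is highest in Lgr5 and CD24 high, Hopx is highest in CD24 high, and Tert is lowest in the Lgr5 array.

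Among 15 other subunits of Polycomb repressive complex 1 and its variants, not all of which hold Bmi1, 2 rose and 2 fell in CD24 medium against CD24 high. There 18.9% of all probes passed. Cbx2 and Cbx6, chromodomain subunits that read the Polycomb histone mark, rose by 1.07 and 1.42 on the log2 scale (limma adjusted p = 0.012 and 0.046). In CD24 low against CD24 high, where 15.5% of all probes passed, none rose and 2 fell, among them Cbx7 (−1.02, adjusted p = 0.013). The median difference of the 15 was −0.06, against 0.02 over all probes. Between the mean of the Dll1 groups and Lgr5, where 28.9% of all probes passed, 3 were lower in Dll1 cells, among them Pcgf6 (−1.16, adjusted p = 0.0043) and Cbx2 (−1.11, adjusted p = 0.0089). None of the 15 passed between CD24 low and CD24 medium, where 0.0857% of all probes passed.

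Cdkn2a, the best known gene under Bmi1's control, was on the array and did not pass the filter on dim probes. Of the 4 further cell cycle inhibitors measured, 3 were higher in the Dll1 mean than in Lgr5, where 28.9% of all probes passed. The 3 were led by Cdkn1a (3.53, limma adjusted p = 0.0018) and Cdkn2b (2.87, adjusted p = 0.00087). Between CD24 levels, Cdkn1c rose in CD24 medium against CD24 high (1.89, adjusted p = 0.035) and Cdkn2b in CD24 low against CD24 high (1.16, adjusted p = 0.021).

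Lrig1 stood highest in Lgr5 and in CD24 high cells. Its probe (A_51_P116137, mm9 chromosome 6, 94554681 to 94554740, minus strand) gave log2 ratios of 0.81 in high 1 and 0.67 in high 2. They were 0.19 in medium 1 and 0.34 in medium 2. They were 0.03 in low 1, 0.26 in low 2 and 0.85 in the Lgr5 array. CD24 high lay above all 4 CD24 medium and low arrays, and the medium and low arrays overlapped.

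No Lrig1 difference passed the threshold, and several lay close to it. CD24 low was 1.51-fold below CD24 high (−0.60, SE 0.17, 95% interval −0.99 to −0.20, limma adjusted p = 0.056) and 1.63-fold below Lgr5 (−0.71, SE 0.20, 95% interval −1.19 to −0.22, adjusted p = 0.051). CD24 medium against CD24 high gave −0.47 (95% interval −0.87 to −0.08, adjusted p = 0.093), and within the slides −0.61 on slide 1 and −0.33 on slide 2. CD24 medium against Lgr5 gave −0.59 (adjusted p = 0.095), where 17.7% of all probes passed. CD24 high and Lgr5, neighbours in the order of levels, differed by −0.11 (95% interval −0.60 to 0.37, adjusted p = 0.72), and CD24 low and medium by −0.12 (95% interval −0.52 to 0.27, adjusted p = 0.89). Lrig1 crossed the threshold in CD24 low against CD24 high without background subtraction (adjusted p = 0.020), on the sample channel alone (0.047) and among probes above background on all 7 arrays (0.036), and its direction was the same in all 22 alternatives tried.

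Of 12 ErbB receptors, ligands and Lrig paralogues measured, 1 rose and 3 fell in CD24 medium against CD24 high (18.9% of all probes passed). In CD24 low against CD24 high 2 rose and 3 fell, where 15.5% of all probes passed. The ligands Tgfa (−2.73, limma adjusted p = 0.00060) and Egf (−2.27, adjusted p = 0.0020) and the receptor Erbb2 (−1.17, adjusted p = 0.031) fell in CD24 low. The ligand Hbegf (1.42, adjusted p = 0.013) and the paralogue Lrig3 (1.05, adjusted p = 0.028) rose. Erbb2 and Lrig3 were chosen after their values were seen. Against Lgr5, 4 of the 12 were higher in the Dll1 mean and none lower, where 28.9% of all probes passed. Among the 4 were Areg at 2.96 (adjusted p = 0.0093) and Hbegf at 2.13 (adjusted p = 0.0027). Erbb4, a receptor, did not pass the filter.

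Hopx had a positive log2 ratio to whole small intestine on all 7 arrays, which without a dye swap may hold a dye difference of the probe. Its probe (A_52_P512575, mm9 chromosome 5, 77516460 to 77516519, minus strand) gave log2 ratios of 1.08 and 0.90 in CD24 high and of 0.36 and 0.94 in CD24 medium. They were 0.08 and 0.50 in CD24 low and 0.37 in the Lgr5 array. The highest value was that of high 1 and the lowest that of low 1, and medium 2 reached into the range of CD24 high.

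No Hopx difference passed. The largest was CD24 low against CD24 high, at −0.69 (SE 0.25, 95% interval −1.28 to −0.11, limma adjusted p = 0.11), a 1.62-fold lower level, and both low arrays lay below both high arrays. CD24 high against Lgr5 gave 0.61 (95% interval −0.10 to 1.33, adjusted p = 0.17), where 33.5% of all probes passed, and 0.70 on slide 1. CD24 medium against CD24 high was −0.34 (95% interval −0.93 to 0.25, adjusted p = 0.37), and came to −0.72 on slide 1 but 0.04 on slide 2. The Hopx level of CD24 low and of the Lgr5 array differed by −0.08 (95% interval −0.80 to 0.64, adjusted p = 0.87). Of 4 partner genes, Srf, the transcription factor that Hopx restrains in the heart, fell in CD24 low against CD24 high (−1.13, adjusted p = 0.0062) and was higher in the Dll1 mean than in Lgr5 (1.88, adjusted p = 0.0010). None of the other 3 passed in any comparison. Of all probes, 15.5% passed in CD24 low against CD24 high and 28.9% in the Dll1 mean against Lgr5.

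Tert had a positive log2 ratio to the reference on all 7 arrays, with the same limit, and was lowest in the Lgr5 array. Its probe (A_51_P433778, mm9 chromosome 13, 73786429 to 73786488, plus strand) starts at base 3365 of the RefSeq transcript, and its first 33 bases run in the first reading frame to a stop codon, in capitals, where the telomerase coding sequence ends. They are shown because they place the probe at the 3′ end of the gene:

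Tert probe, first bases: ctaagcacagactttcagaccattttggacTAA

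Tert log2 ratios were 1.37 in high 1 and 0.75 in high 2, 0.80 in medium 1 and 0.98 in medium 2, and 0.53 in low 1 and 1.42 in low 2. The Lgr5 array gave 0.20, below all 6 Dll1 arrays. The CD24 low replicates were the lowest and the highest of the Dll1 arrays, and the 3 CD24 levels overlapped.

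**Figure D3:**
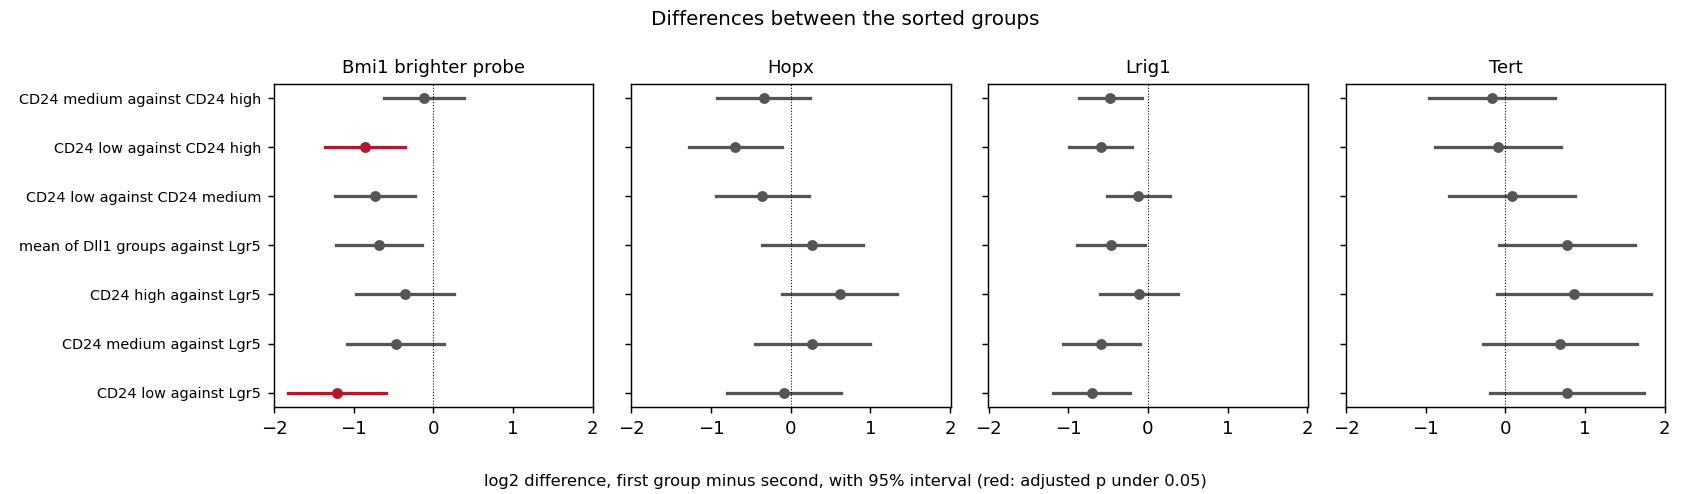
Log2 difference (first group minus second, dot) with its 95% interval for 4 member probes in the 7 comparisons, red where the adjusted p was under 0.05; the dimmer Bmi1 probe is left out because it was mostly not above background. Only Bmi1 in CD24 low against CD24 high and in CD24 low against Lgr5 is red, and the Tert intervals are the widest.

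No Tert difference passed. The mean of the Dll1 groups lay 0.77 above Lgr5 on the log2 scale (SE 0.36, 95% interval −0.08 to 1.63, limma adjusted p = 0.15), a 1.71-fold higher level. In the same comparison Bmi1 gave −0.68 (adjusted p = 0.065), Lrig1 −0.47 (adjusted p = 0.094) and Hopx 0.27 (adjusted p = 0.48), so 0 of 5 member probes passed, and 2 had an unadjusted p under 0.05. The call for Bmi1 was gained with low 1 left out (−0.77, adjusted p = 0.020) or low 2 left out (−0.59, adjusted p = 0.048), and that for Tert with low 1 left out (0.92, adjusted p = 0.044). Single CD24 levels exceeded Lgr5 in Tert by 0.86 (high), 0.69 (medium) and 0.77 (low), with adjusted p of 0.15, 0.29 and 0.22. Between CD24 levels Tert differed by −0.17, −0.09 and 0.08, with 95% intervals reaching from −0.96 to 0.87 over the 3 comparisons, and the sign of each changed with a single array left out.

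Shelterin is the complex that caps telomeres. Between the Dll1 mean and Lgr5, 28.9% of all probes passed. Of 11 measured partners of Tert in telomerase and shelterin, 1 was higher and 5 were lower in the Dll1 mean than in Lgr5. The lower ones were led by the telomerase RNP proteins Nhp2 (−1.40, limma adjusted p = 0.0033) and Nop10 (−1.06, adjusted p = 0.018). Their median difference was −0.41, against 0.12 over all probes, while the Tert value was positive. In CD24 low against CD24 high, Terf1, a shelterin protein, rose (0.68, adjusted p = 0.025) and none fell, where 15.5% of all probes passed. In CD24 medium against CD24 high, where 18.9% of all probes passed, Terf1 and Pot1a rose.

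Counting over the 5 probes, 0 passed in CD24 medium against CD24 high, 1 in CD24 low against CD24 high, 0 in CD24 low against CD24 medium, 0 in the Dll1 mean against Lgr5, 0 in CD24 high against Lgr5, 0 in CD24 medium against Lgr5 and 1 in CD24 low against Lgr5, by limma with Benjamini-Hochberg adjustment. The share of all probes that passed was 18.9, 15.5, 0.0857, 28.9, 33.5, 17.7 and 20.8% in the same order, so the counts of 0 or 1 in 5 lie near this background and are not a result about the 4 genes as a group. At an unadjusted p under 0.05 the member counts were 1, 3, 1, 2, 0, 1 and 2 in the same order. The comparisons with Lgr5 share its 1 array. Of the 4 probes measured on every array, 4 had a negative difference both in CD24 low and in CD24 medium against CD24 high, with medians of −0.65 and −0.25 against 0.02 and 0.00316 over all probes. The sign of Tert in both comparisons and of Hopx in CD24 medium changed under some of the alternatives, none of them with a call. On simulated arrays, 14 of 100 probes changed by 1 on the log2 scale were called in CD24 low against CD24 high. In the Dll1 mean against Lgr5 4 of 100 were called. Far fewer probes changed there than were called in the data, which makes the adjusted threshold stricter in the simulation. These shares are therefore not the power of the comparisons reported. A probe that did not pass is still not shown to be equal.

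**Figure D4:**
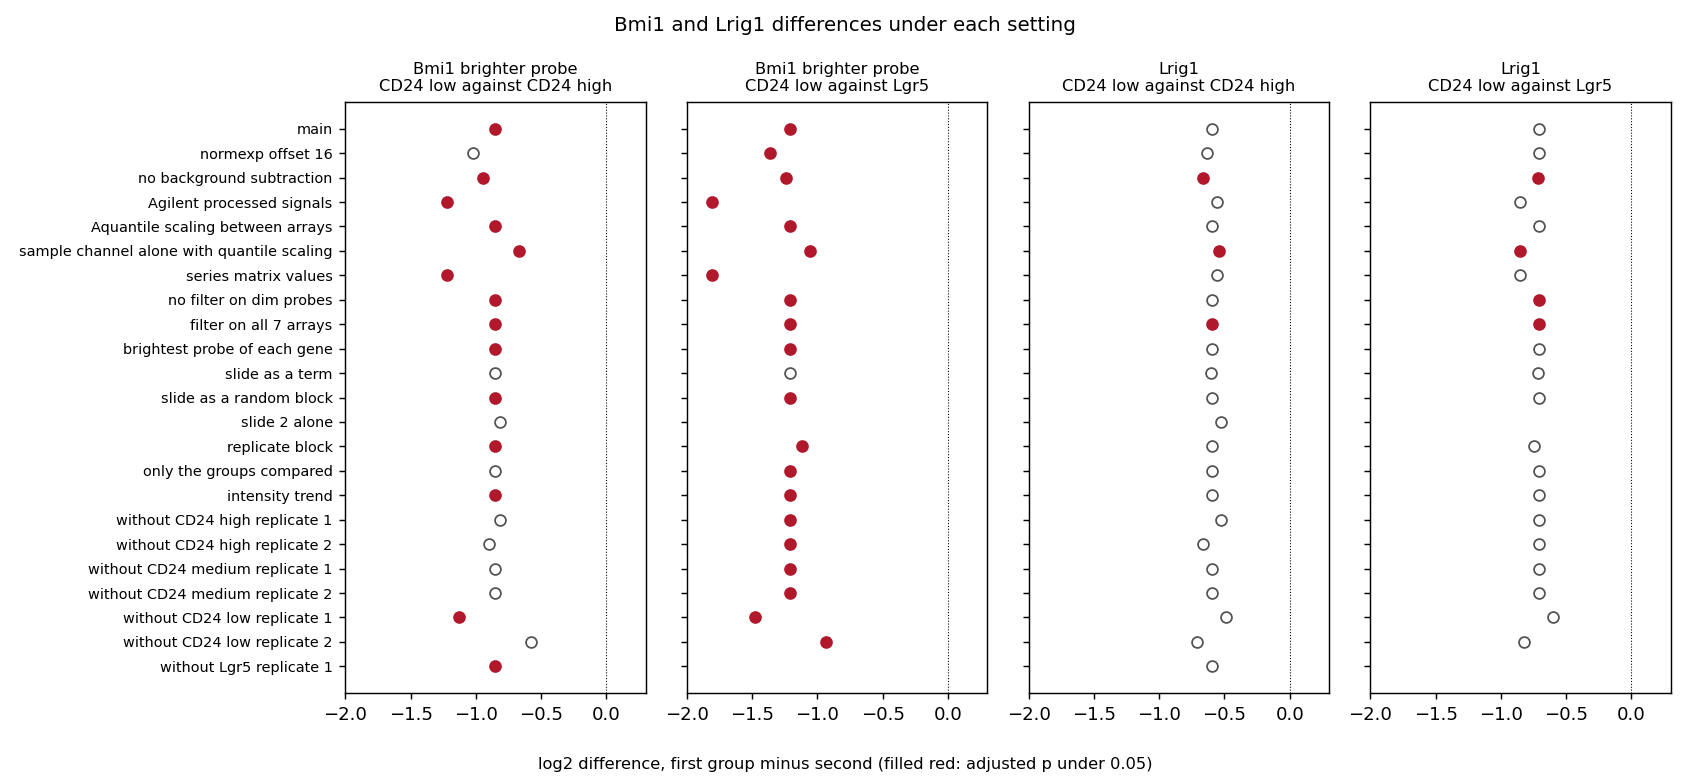
Log2 difference of Bmi1 (brighter probe) and Lrig1 in CD24 low against CD24 high and against Lgr5 under each processing setting (points; filled red where the adjusted p was under 0.05; an empty row where the setting gives no value). All points lie below 0, but for Bmi1 against CD24 high 9 of the 22 alternatives are open, among them 5 that leave out 1 array, and for Lrig1 against CD24 high 3 are filled.

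Markers of other crypt cells also moved with the CD24 level. Of all probes, 15.5% passed in CD24 low against CD24 high. All 7 Paneth markers fell in CD24 low against CD24 high, and their mean log2 ratio was 5.05 and 5.35 in CD24 high, −1.01 and −0.84 at CD24 medium, −3.11 and −3.00 in CD24 low and −3.73 in Lgr5. Of 12 crypt base stem cell markers, 6 fell in CD24 low against CD24 high, led by Ephb3 (−3.51, limma adjusted p = 0.00012) and Lgr5 (−2.32, adjusted p = 0.00070). In the Dll1 mean 10 of the 12 were lower than in the Lgr5 array, where 28.9% of all probes passed. The mean of that list was 0.55 and 0.36 in CD24 high, −0.43 and −0.42 at CD24 medium, −0.58 and −0.43 in CD24 low and 1.75 in Lgr5. Lrig1 and Bmi1 stood highest in the same groups, Lgr5 and CD24 high. The steps differed for Bmi1, at 0.23 in CD24 high, 0.10 in CD24 medium and −0.63 in CD24 low. The mean of the stem cell list fell between CD24 high and medium and changed little from medium to low. The part that Paneth or Lgr5-positive cells had in the member values was not tested.

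The remaining marker lists moved in both directions between CD24 low and CD24 high, where 15.5% of all probes passed. Goblet markers rose in 5 of 7 and enteroendocrine markers in 4 of 8, while 3 of 6 tuft markers fell. Of 7 enterocyte markers 1 rose, of 5 immune markers 2 fell, and of 6 markers of mesenchyme, endothelium and muscle 2 fell. The immune pair holds Lyz2 (−7.45, adjusted p = 1.7e-05), whose sequence is close to that of the Paneth marker Lyz1, so the probe may read both, and the marker Ptprc did not pass the filter. Mesenchyme markers averaged −3.10 to −2.50 in the 6 Dll1 arrays and −4.20 in Lgr5.

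**Figure D5:**
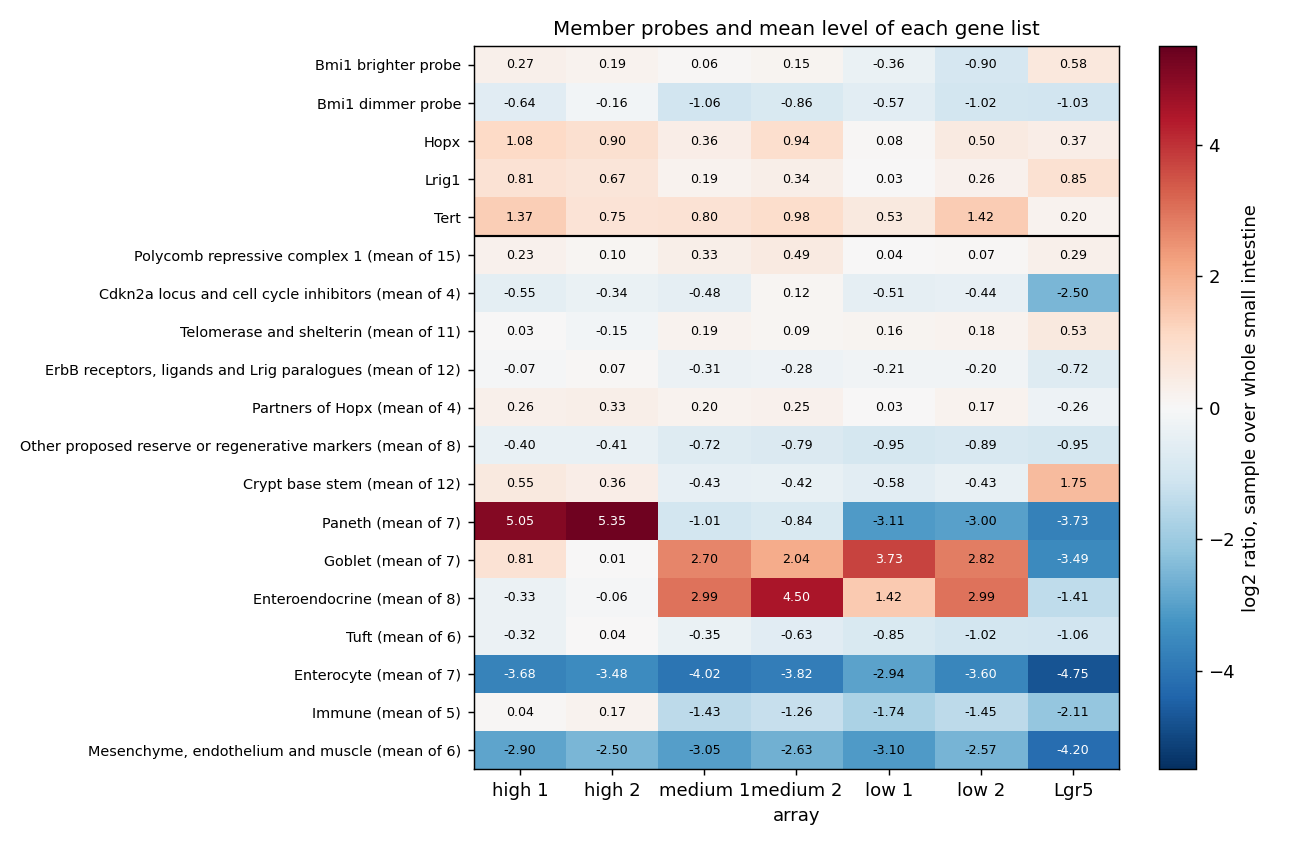
Log2 ratio of sample over whole small intestine (colour and printed value) on the 7 arrays for the 5 member probes (above the line) and the mean of each gene list's measured members (below it). The member rows span less than the Paneth, goblet and enteroendocrine rows, and the crypt base stem row is highest in Lgr5, at 1.75, and in CD24 high.

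Of 8 other genes proposed as reserve or regenerative markers, 1 rose and 4 fell in CD24 low against CD24 high. Their median difference was −0.79, and 15.5% of all probes passed in this comparison. Sox9, a transcription factor of the crypt base, fell by 1.73 on the log2 scale (limma adjusted p = 0.0048) and Krt19, a simple epithelial keratin, rose by 1.18 (adjusted p = 0.0040). In CD24 medium against CD24 high, where 18.9% of all probes passed, 2 rose and 3 fell. Sox9 fell by 1.35 (adjusted p = 0.012), and Mex3a, an RNA-binding protein, passed as higher in CD24 medium (adjusted p = 0.0067), with no fold given because it was not well above background in CD24 high. Against Lgr5, where 28.9% of all probes passed, 3 were higher in the Dll1 mean, among them Prox1 (1.98, adjusted p = 0.0017). The 1 lower gene was Krt15 (−1.23, adjusted p = 0.014). None of the 8 passed between CD24 low and CD24 medium, where 0.0857% of all probes passed.

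The 4 genes did not share 1 pattern. Over the 7 arrays, which share the reference and include 3 replicate pairs, Pearson's r was 0.70 between Bmi1 and Lrig1, 0.57 between Hopx and Lrig1 and 0.55 between Hopx and Tert. It was 0.33 between Bmi1 and Hopx, −0.09 between Lrig1 and Tert and −0.50 between Bmi1 and Tert. Among 7182 genes with a range of at least 1 on the log2 scale, the genes most like Bmi1 were Qser1 (r = 0.985), Lin52 (0.98) and Tmem68 (0.975). Qser1 stood at −0.08 and −0.28 in CD24 high, −0.76 and −1.17 in CD24 low and −0.04 in Lgr5. The genes most like Lrig1 were Hibadh (0.993), Rasl11b (0.992) and Macrod1 (0.99), and Rasl11b stood at 0.55 and 0.42 in CD24 high and at −0.76 and −0.53 in CD24 low. Those most like Hopx were Arhgef28 (0.97), Whrn (0.966) and Ncoa7 (0.961), and those most like Tert were Acer2 (0.979), Adora2a (0.972) and Llph (0.968). With 7 points and so many genes these values are a description only.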

How the data were processed

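Per the file headers, the deposited scanner output gives the intensity of each spot and of its background per channel (Agilent Feature Extraction 10.5.1.1), with a log10 ratio of Cy5 over Cy3. The authors' series matrix, also log10 per the values, equals that ratio with its sign turned. Per the labels' protocols, Cy3 marks the sample on each array and dyes were not swapped.

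Mean signals were corrected with normexp (offset 50) and loess (span 0.3) within each array, in limma 3.58.1 (R 4.3.3, data.table version 1.17.8). Control spots had no weight and spots marked as outliers in either channel were left out. Spots of a probe were averaged, and 24495 of 41174 probes, well above background in the sample channel on at least 2 of 7 arrays, were kept. Groups came from the labels. The limma model took 1 mean for each group over the 7 arrays (3 residual and 3.8 prior degrees of freedom), with Benjamini-Hochberg adjustment over all kept probes and a threshold of 0.05. The number of arrays limits the precision.

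Members and gene lists were chosen with earlier results of these data known. Named genes are all member probes, the 3 genes most correlated with each member, up to 2 called genes per list in each CD24 comparison and in the Dll1 mean against Lgr5, and Lgr5, Dll1 and Cd24a; others are said to be chosen after their values were seen. A list gene is represented by its brightest kept probe. The values of 1 list gene that the rule names are not reported here.

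Tested on simulated data with 24176 probes, CD24 low against CD24 high recovered 68 of 100 probes changed by 2 on the log2 scale and 14 of 100 changed by 1, and CD24 low against Lgr5 recovered 43 and 0. This was fewer than first required, and the requirement was then set on bias and false calls alone. Far fewer probes changed in the simulation than were called in the data, so its adjusted threshold was stricter. Alternatives were 15 settings and leaving out each array. Values on slide 1 alone were added after seeing the data. Sequences are from the array files. An mm9 annotation was not used here, so exon and UTR positions are not given. Figures used matplotlib 3.10.9 under Python 3.11.15.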

Additional observations from a re-analysis of the deposited data

How the results depend on the processing

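No difference past the threshold changed its sign under any alternative. Of 711 member differences recomputed, 649 had the same sign and side of the threshold, 10 lost the call (9 of Bmi1 in CD24 low against CD24 high, 1 of Bmi1 in CD24 low against Lgr5), 21 gained one, and 31 changed sign without a call in either setting. The number of member probes called went from 0 to 2 in CD24 medium against CD24 high without background subtraction. In CD24 low against CD24 high it went from 1 to 0 with offset 16, slide as a term, slide 2 alone or only the groups compared, to 3 without background subtraction, and to 2 on the sample channel alone or with the filter on all 7 arrays. In the Dll1 mean against Lgr5 it went from 0 to 2 without background subtraction and to 1 on the sample channel alone or with the filter on all 7 arrays. In CD24 high against Lgr5 it went from 0 to 2 without background subtraction and to 1 (Tert) on Agilent's processed signals or the series matrix. In CD24 low against Lgr5 it went from 1 to 2 without background subtraction, on the sample channel alone, without a filter or with the filter on all 7 arrays, and to 0 with slide as a term. The calls gained without background subtraction include the dimmer Bmi1 probe in 3 comparisons, where its sample signal was mostly not above background. Leaving out single arrays gave 0 to 1 calls in CD24 low against CD24 high and 0 to 2 in the Dll1 mean against Lgr5; a lone array left in a group is assumed to vary like the others. The cause of these changes was not tested.

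The sign changes were these. For the dimmer Bmi1 probe, CD24 medium against CD24 high was 0.15 on processed signals and the series matrix and 0.028 on the sample channel; CD24 low against CD24 medium was −0.11 without background subtraction, −0.29 on processed signals and the series matrix, −0.065 on the sample channel and −0.0070 with slide as a term. On the sample channel it gave −0.047 for the Dll1 mean, −0.044 for high, −0.017 for medium and −0.081 for low against Lgr5; with slide as a term −0.10 for both medium and low; and −0.13 for low on processed signals and the series matrix. On slide 2 alone, CD24 medium against CD24 high was 0.04 for Hopx and 0.23 for Tert, and Tert was 0.22 in CD24 low against CD24 high and −0.0087 in CD24 low against CD24 medium. With slide as a term Tert was 0.023 in CD24 low against CD24 high, and on the sample channel Hopx was 0.11 in CD24 low against Lgr5. Leaving out single arrays gave Tert −0.48 to 0.14, −0.53 to 0.36 and −0.36 to 0.53 in the 3 CD24 comparisons, Hopx −0.015 to 0.56 (medium) and −0.29 to 0.13 (low) against Lgr5, and the dimmer Bmi1 probe −0.061 to 0.39 in CD24 low against CD24 medium and −0.030 to 0.17 in CD24 medium against Lgr5. The cause was not tested.

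The replicate number as a block gave 1 call in CD24 low against CD24 high (Bmi1 −0.86, adjusted p = 0.039) and 1 in CD24 low against Lgr5 (−1.12, adjusted p = 0.036), and 0 in the other 5 comparisons, so it changed no call. Deviations of equally numbered arrays correlated at 0.301, −0.00875 and 0.457, so the numbers are not taken as pairs. Agilent's processed signals moved the median of all probes to 0.239 in CD24 medium and 0.268 in CD24 low against CD24 high, from 0.00316 and 0.02, and the share of calls that were higher to 60 and 61.6% from 36 and 38.4%. Over the alternatives the probes called ranged from 1453 to 6919 (4630 as reported) in CD24 medium against CD24 high, 1999 to 7656 (3806) in CD24 low against CD24 high, 10 to 172 (21) in CD24 low against CD24 medium, 4554 to 8748 (7062) in the Dll1 mean, 1701 to 5568 (4329) in CD24 medium and 1942 to 6736 (5073) in CD24 low against Lgr5.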
